A study of Saccharomyces cerevisiae with 8 samples.

Results

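The 57 genes described here encode ribosome biogenesis factors of budding yeast. They are the rows of the deposited table whose standard gene name is UTP, NOP, DBP, NSA, NUG, NOC, TSR, RLP or ESF followed by a number. DBP5 fits that pattern and was left out, because its product, a DEAD-box protein, acts in mRNA export. The table holds 11844 features in all, 5925 of them nuclear protein-coding genes. The rule reads names only, so 2 of the 57 genes, DBP1 and DBP2, have their best known roles outside ribosome assembly, and many assembly factors with other names are not among the 57.

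The cells were of the haploid strain BY4741 (MATa his3Δ1 leu2Δ0 met15Δ0 ura3Δ0), either with UPF1 deleted by a kanMX4 cassette (upf1) or with UPF1 present (WT). Cultures in the rich medium YPD reached an OD600 of 0.5 at 30 °C and then received cycloheximide (CHX) at 100 µg/ml, or the same volume of its solvent DMSO, for 15 min. The 4 groups were upf1 with CHX, upf1 with DMSO, WT with CHX and WT with DMSO, with 2 biological replicates each and 8 libraries in all. All RNA was incubated with Terminator, an exonuclease that removes RNA whose 5′ end is a monophosphate and leaves capped RNA, so the values describe capped or otherwise protected RNA, and no undigested libraries are analysed here. Cycloheximide stops translation elongation, and Upf1 is a helicase that nonsense-mediated mRNA decay (NMD), a translation-dependent pathway, requires. A culture is measured in bulk, so fewer cells with a transcript and less transcript per cell cannot be told apart.

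Ribosomes are assembled in the nucleolus around a long precursor rRNA. The small-subunit processome forms on that precursor as it is transcribed: the UTP-A subcomplex binds early, UTP-B and the U3 small nucleolar ribonucleoprotein (snoRNP) join it, and further factors fold and cleave the RNA. Box C/D and box H/ACA snoRNPs modify the rRNA, other factors and DEAD-box helicases build the large subunit, and late factors finish the small subunit in the cytoplasm. Yeast expresses these genes together as a regulon that follows nutrient supply, and 2 short promoter motifs are known for it: PAC, bound by Dot6 and Tod6, and RRPE, bound by Stb3.

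The promoters of the 57 genes share these motifs, which the rule did not use. In RefSeq R64, the PAC letters GATGAG occurred on either strand between 250 bases before and 50 bases after the start codon in 51 of 57 genes (89.5%), against 1222 of 6001 promoters of all genes (20.4%). With matches that lie wholly upstream of the start codon, the counts were 48 of 57 (84.2%) and 1022 of 6001 (17.0%). The RRPE letters AAAATTTT, which read the same on both strands, occurred in 40 of 57 (70.2%) against 542 of 6001 (9.03%). Both motifs stood in 37 of 57 windows (64.9%) against 263 of 6001 (4.38%), and neither in 3 of 57 (5.26%) against 4500 of 6001 (75.0%). The 3 genes with neither were DBP1, UTP22 and UTP30. The longer PAC form GCGATGAG was found in 28 of 57 windows (49.1%) against 3.93% of all; it contains the short one. A match is a description of letters and not a shown binding site.

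The stretches below are printed for genes of different roles on which the results turn, to show how the motifs sit next to each other. Each runs 5′ to 3′ on the gene's strand, from 15 bases before the outermost motif to 15 bases after it, with PAC (GATGAG or its complement CTCATC) and RRPE (AAAATTTT) in capitals.
UTP10: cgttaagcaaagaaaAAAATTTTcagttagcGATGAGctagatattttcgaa
UTP15: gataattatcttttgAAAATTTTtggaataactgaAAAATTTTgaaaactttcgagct
UTP21: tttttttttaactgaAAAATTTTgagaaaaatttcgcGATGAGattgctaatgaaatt
NOP1: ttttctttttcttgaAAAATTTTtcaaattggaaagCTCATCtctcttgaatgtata
NOP56: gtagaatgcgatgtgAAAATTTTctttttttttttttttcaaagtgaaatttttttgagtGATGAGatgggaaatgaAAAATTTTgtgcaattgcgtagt
NOP7: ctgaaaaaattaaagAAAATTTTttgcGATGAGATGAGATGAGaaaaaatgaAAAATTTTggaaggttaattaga
NUG1: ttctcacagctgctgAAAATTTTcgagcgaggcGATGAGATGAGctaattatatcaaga
TSR4: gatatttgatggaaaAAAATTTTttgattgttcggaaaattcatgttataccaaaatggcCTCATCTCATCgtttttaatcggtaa
DBP2: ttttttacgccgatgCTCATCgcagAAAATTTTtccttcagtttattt
In R64 the UTP10 stretch is chrX:217389-217440 on the minus strand, that of UTP15 is chrXIII:453867-453924 on the plus strand, and that of UTP21 is chrXII:937324-937381 on the minus strand. The NOP1 stretch is chrIV:427124-427180, that of NOP56 chrXII:545910-546009, that of NOP7 chrVII:695261-695335, that of NUG1 chrV:162587-162645 and that of DBP2 chrXIV:413469-413516, all on the plus strand. The TSR4 stretch is chrXV:281558-281643 on the minus strand. RRPE lay upstream of PAC in UTP10, UTP21, NOP1, NUG1 and TSR4, PAC lay upstream of RRPE in DBP2, and RRPE flanked PAC on both sides in NOP56 and NOP7. UTP15 held RRPE at 2 places and no PAC.

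Most matches lay in a narrow stretch upstream of the start codon. The base before the start codon is counted as -1, and positions are those of the first base of a match. Among the 85 PAC matches, those that start before the start codon had a median of -119, with quartiles at -138 and -98. The few PAC matches that start in the coding part are left out of these figures. The 48 RRPE matches had a median of -133, with quartiles at -148 and -116. By role, PAC was found in 5 of 6 UTP-A genes, 4 of 4 UTP-B genes, 14 of 16 other small-subunit processome genes and 4 of 4 snoRNP core genes. It was also in 5 of 5 large-subunit helicase genes, 14 of 16 other large-subunit genes and 4 of 4 late small-subunit genes.

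**Figure D1:**
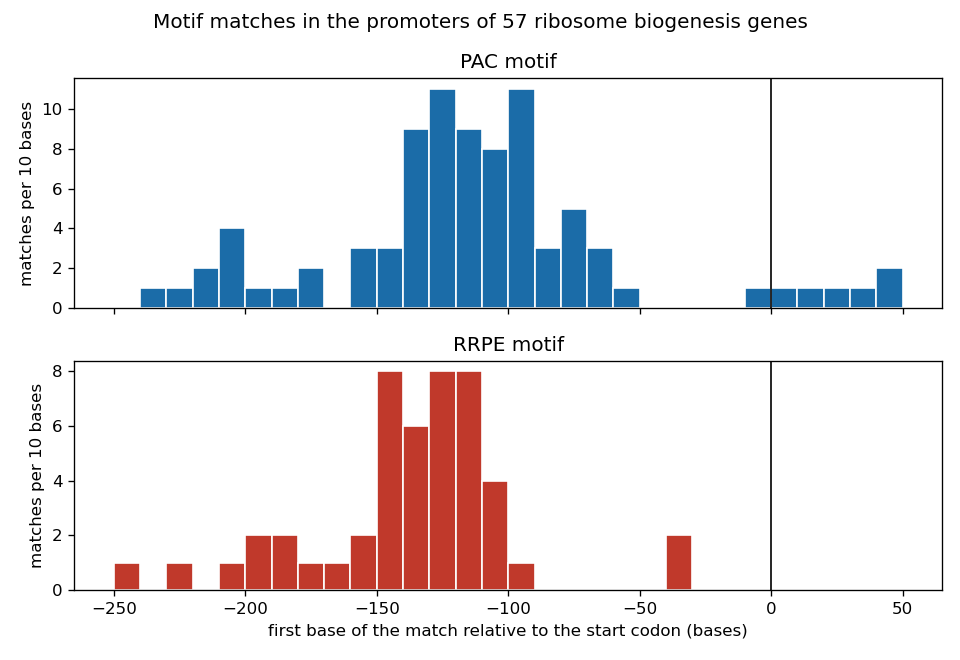
Number of PAC (above) and RRPE (below) matches in the 57 promoters per 10 bases, by the distance in bases of the first base of the match from the start codon (vertical line); overlapping matches are counted each. Most of the 85 PAC matches and the 48 RRPE matches lie around -119 and -133, the medians of the matches that start before the start codon. Of the PAC matches, 7 reach into the coding part.

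The level of each gene is given as scaled reads per kb, the deposited read density per nucleotide times 1000 after the authors' library scaling, which allows genes of different length to be compared. The members ranged over more than 2 orders of magnitude in their mean over the 8 libraries. NOP1, which encodes fibrillarin, the rRNA 2′-O-methyltransferase of box C/D snoRNPs, stood highest with a mean level of 581. DBP2, an RNA helicase of mRNA assembly and transcription, followed with 381, then the box H/ACA protein gene NOP10 with 304, and the genes of the box C/D scaffold proteins NOP58 with 189 and NOP56 with 186. UTP15 came next with 76.0, UTP10 with 53.1, UTP5 with 48.8 and TSR4 with 47.5. At the low end were NOP53, a large-subunit factor that recruits the RNA exosome, with 2.53, NOP8 with 2.41 and NOP14 with 1.95. NOP14, whose product pairs with Noc4 in the processome, was the 1 member whose mean was under the minimum of 2 scaled reads per kb, so the tests below cover 56 members. DBP1, NOP8 and NOP53 passed it only through the group in which they stood highest, with means over the other groups of 1.55, 1.29 and 1.70. Their tests involving that group are therefore not independent of the minimum. The level of NOP14 was 1.97 and 2.05 in upf1 cells with CHX against 1.74 and 1.37 with DMSO, and 3.47 and 1.89 in WT cells with CHX against 1.34 and 1.79 with DMSO.

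**Figure D2:**
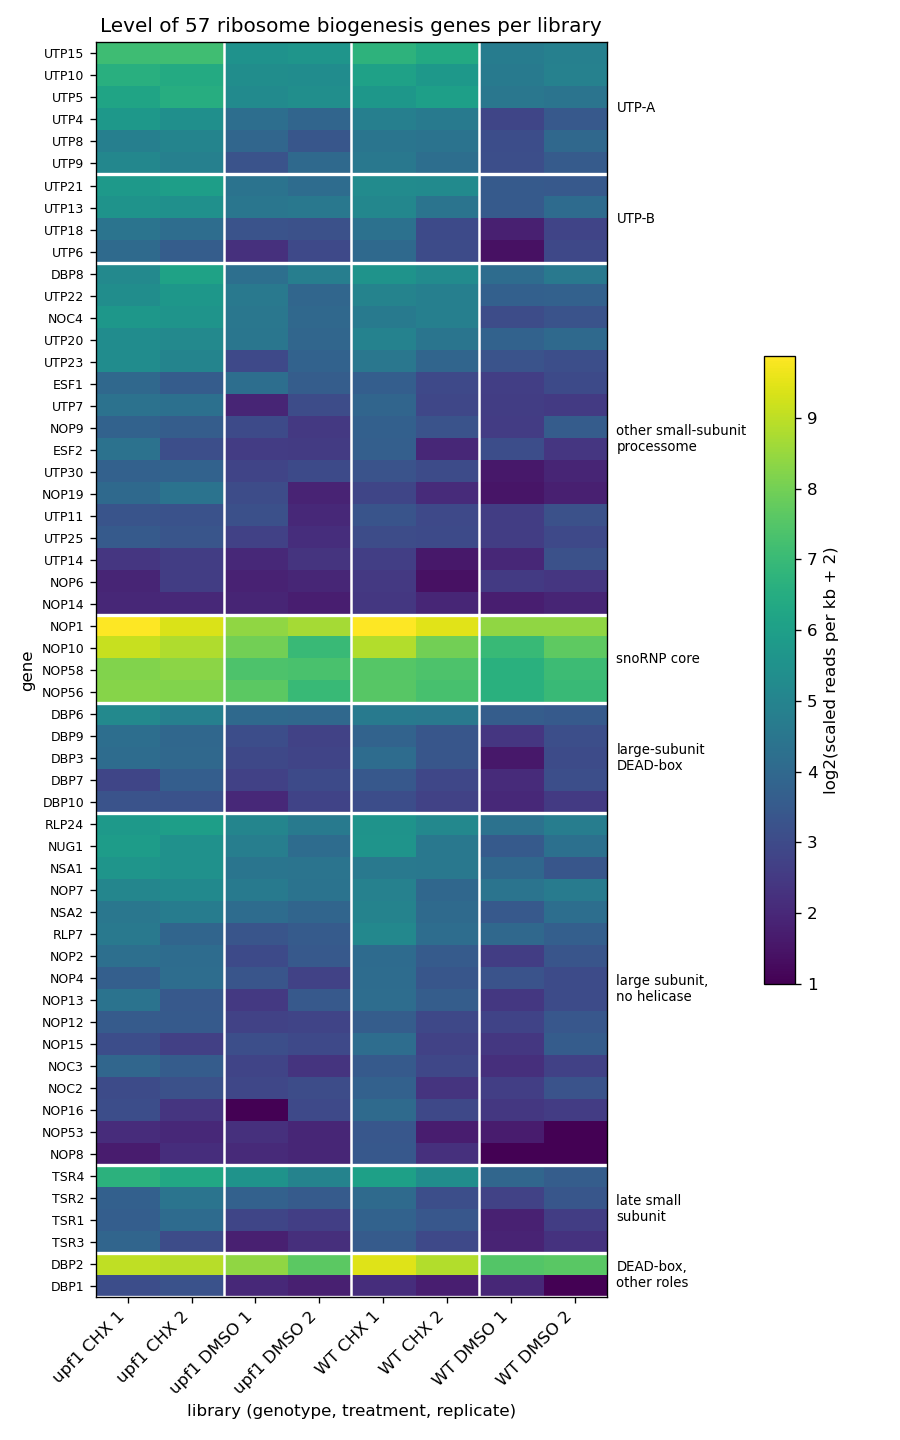
Level of each of the 57 genes (rows, grouped by role and ordered by mean level within a role) in each library (columns: upf1 CHX, upf1 DMSO, WT CHX, WT DMSO, 2 replicates each) as log2(scaled reads per kb + 2), on the colour scale at the right. The snoRNP core genes and DBP2 stand out as the highest rows, and the CHX columns are brighter than the DMSO columns of the same genotype for most genes.

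The median member level was 18.3 and 16.2 in upf1 CHX, 7.60 and 9.16 in upf1 DMSO, 16.0 and 8.65 in WT CHX, and 4.89 and 8.06 in WT DMSO. The median of all protein-coding genes was 35.4 and 33.7 in upf1 CHX, 14.0 and 10.7 in upf1 DMSO, 23.6 and 18.3 in WT CHX, and 6.58 and 7.81 in WT DMSO. Summed over members, their density made up 0.193% and 0.191% of the protein-coding density in upf1 CHX, 0.153% and 0.151% in upf1 DMSO, 0.175% and 0.137% in WT CHX, and 0.115% and 0.144% in WT DMSO. The share was thus higher in both upf1 CHX libraries than in both upf1 DMSO libraries, whereas the CHX and DMSO libraries of WT overlapped. Without NOP1, DBP2 and NOP10 the share was 0.0964% and 0.106% in upf1 CHX, 0.0783% and 0.0814% in upf1 DMSO, 0.0729% and 0.0599% in WT CHX, and 0.0532% and 0.0726% in WT DMSO.

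The depth behind these values was small. Reads assigned to features summed to between 1311182 and 5691218 per library, of which the members took between 1540 and 12581, and the median member had 16 and 60 reads in upf1 CHX, 16 and 15 in upf1 DMSO, 24 and 25 in WT CHX, and 9 and 8 in WT DMSO. NAM7, the gene of Upf1, had 13.5 and 10.1 scaled reads per kb in upf1 CHX against 83.5 and 44.8 in WT CHX, and 5.94 and 2.80 in upf1 DMSO against 14.8 and 15.2 in WT DMSO. It was thus lower in upf1 than in WT under both treatments, and not at 0. The MATa genes STE2, MFA1, MFA2, BAR1 and STE6 had levels of at least 15.3 in every library, while the MATα genes STE3, MF(ALPHA)1 and MF(ALPHA)2 reached at most 33.0. HIS3 was read in all libraries in spite of the his3Δ1 allele, and LEU2, MET15 and URA3 are not analysed here. The replicates of WT CHX stood apart for these genes: 54 of 56 members were higher in replicate 1, by a median of 0.57 on the log2 scale, against 0.33 for protein-coding genes. In WT DMSO, 14 of 56 were higher in replicate 1 (median -0.39, against -0.08 for protein-coding genes).

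Whether CHX changed the capped RNA of these genes was tested first. Changes are log2 differences of scaled reads per kb + 2, so they understate the change of the lowest genes, and a change was called where limma's test, adjusted by the Benjamini-Hochberg method over the 10392 features tested, gave a p under 0.05. In upf1 cells 32 of 56 members rose with CHX, none fell and 24 were not called. As background, 64.1% of all features and 74.0% of protein-coding genes were called higher, and 0.154% of features lower. In WT cells 26 of 56 members rose, none fell and 30 were not called, while 69.8% of all features and 68.5% of protein-coding genes were called higher and 0.106% of features lower. Without DBP1, NOP8 and NOP53 the counts were 31 of 53 in upf1 and 25 of 53 in WT. The shares of members called by limma thus lay below the background in both genotypes. The median change of the members was 1.04 in upf1 and 0.89 in WT, against 1.25 and 1.23 for protein-coding genes. Of the 56 members, 42 changed by less than the protein-coding median in upf1, and 42 did so in WT. Voom on the recovered reads called 38 of 56 members higher in upf1 and 32 of 56 in WT. Of the 10392 features it called 7356 in upf1 and 7181 in WT, in either direction.

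The smallest p-values in both genotypes were those of UTP15 and UTP21. UTP15, a WD40-repeat subunit of UTP-A, had 137 and 141 scaled reads per kb in upf1 cells with CHX against 44.3 and 47.6 with DMSO, and 105 and 81.6 in WT cells with CHX against 24.5 and 27.4 with DMSO. All CHX libraries lay above all DMSO libraries. The log2 change was 1.56 ± 0.218 (SE, limma adjusted p = 0.00292) in upf1 and 1.76 ± 0.218 (adjusted p = 0.000823) in WT. UTP21, a WD40-repeat subunit of UTP-B, had 53.4 and 61.0 in upf1 cells with CHX against 18.7 and 15.5 with DMSO, and 36.9 and 36.1 in WT cells with CHX against 9.52 and 9.04 with DMSO. Here too every CHX library was above every DMSO library. Its log2 change was 1.64 ± 0.235 (limma adjusted p = 0.00316) in upf1 and 1.77 ± 0.235 (adjusted p = 0.000997) in WT. These were also the 2 genes whose call in upf1 cells held in each of the 8 fits that lacked 1 library.

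**Figure D3:**
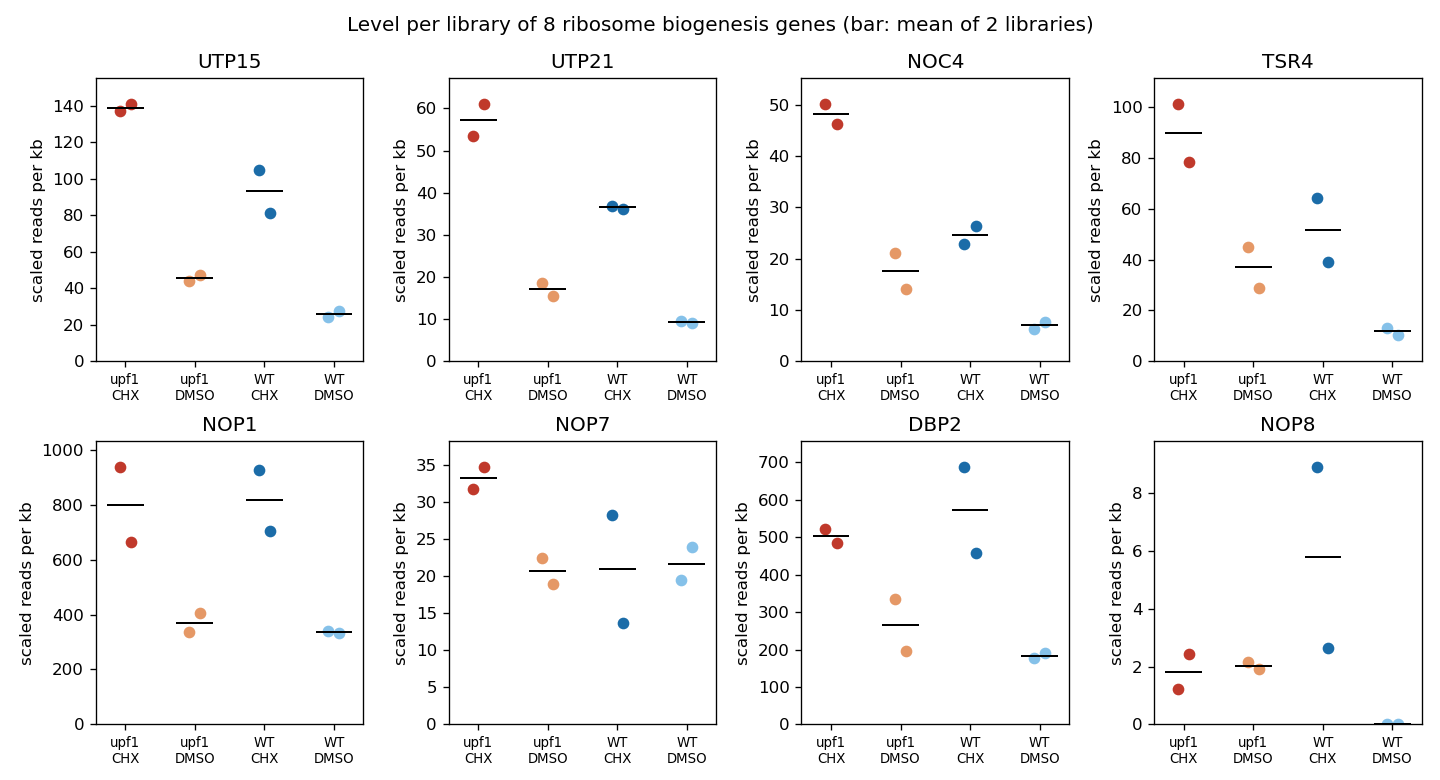
Scaled reads per kb (linear axes from 0, a scale per gene) of 8 genes in upf1 CHX, upf1 DMSO, WT CHX and WT DMSO; points are the 2 libraries of a group and the bar is their mean. UTP15, UTP21, NOC4 and TSR4 are higher with CHX than with DMSO in both genotypes, the WT libraries of NOP7 overlap, and NOP8 is listed at 0 in both WT DMSO libraries.

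Of the UTP-A genes, 6 of 6 rose in upf1 and 5 of 6 in WT. Their median changes of 1.30 and 1.25 lay near the protein-coding medians of 1.25 and 1.23. All 6 lay above the members' median level, where 83.1% of protein-coding genes rose in upf1 and 80.3% in WT. For this and the roles below, the background is 64.1% of all features called higher in upf1 and 69.8% in WT. UTP10, the long scaffold protein of UTP-A, had 95.5 and 84.1 scaled reads per kb in upf1 cells with CHX against 38.6 and 37.9 with DMSO, and 65.0 and 51.7 in WT cells with CHX against 23.4 and 28.2 with DMSO. The treatments did not overlap in either genotype, and the changes were 1.19 ± 0.231 (limma adjusted p = 0.00625) in upf1 and 1.11 ± 0.231 (adjusted p = 0.00464) in WT. UTP4, a WD40 protein, had 51.7 and 41.1 in upf1 cells with CHX against 16.4 and 12.9 with DMSO, and rose by 1.54 ± 0.308 (adjusted p = 0.00665). UTP5 rose by 1.39 ± 0.239 (adjusted p = 0.00228) in WT, where UTP8 was the 1 gene of the subcomplex that was not called.

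Of the 4 UTP-B genes, 2 rose in upf1 (UTP21 and UTP13) and 3 in WT (UTP21, UTP13 and UTP18). UTP13, a WD40 subunit, had 45.5 and 42.1 scaled reads per kb in upf1 cells with CHX against 20.4 and 21.5 with DMSO, and 32.3 and 19.2 in WT cells with CHX against 9.29 and 15.3 with DMSO. Within each genotype its CHX libraries were above its DMSO libraries, and its changes of 1.00 ± 0.328 (limma adjusted p = 0.0314) in upf1 and 0.95 ± 0.328 (adjusted p = 0.0331) in WT were below the protein-coding median. UTP6 was called in neither genotype.

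Of the other small-subunit processome genes, 9 of 15 rose in upf1 and 5 of 15 in WT. NOC4, whose product forms a heterodimer with Nop14, had 50.1 and 46.2 scaled reads per kb in upf1 cells with CHX against 21.2 and 14.1 with DMSO, and 22.8 and 26.3 in WT cells with CHX against 6.40 and 7.59 with DMSO. CHX libraries were above DMSO libraries within each genotype, with changes of 1.37 ± 0.276 (limma adjusted p = 0.00672) in upf1 and 1.56 ± 0.276 (adjusted p = 0.00254) in WT. UTP22, a processome subunit that binds Rrp7, rose by 1.25 ± 0.296 (adjusted p = 0.0108) in upf1 and 1.16 ± 0.296 (adjusted p = 0.0104) in WT.

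UTP7, UTP23, NOP19 and UTP21 had the largest changes in upf1 cells. UTP7 had 18.3 and 17.3 scaled reads per kb in upf1 cells with CHX against 1.79 and 6.35 with DMSO, and 12.7 and 5.49 in WT cells with CHX against 4.15 and 3.69 with DMSO. Its change was 1.81 ± 0.469 (limma adjusted p = 0.0142) in upf1 and 0.83 in WT, where it was not called. NOP19 had 14.3 and 18.9 in upf1 cells with CHX against 6.31 and 1.65 with DMSO, a change of 1.74 ± 0.477 (adjusted p = 0.0168), and 5.24 and 2.29 in WT cells with CHX against 0.811 and 1.44 with DMSO. UTP23, which acts with the snoRNA snR30, rose by 1.78 ± 0.369 (adjusted p = 0.00735) in upf1 and 1.00 ± 0.369 (adjusted p = 0.0409) in WT. Within each genotype the libraries of UTP7, NOP19 and UTP23 did not overlap between treatments, and the interaction with genotype was called for none of them.

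At the other end of the processome genes, ESF1, needed for maturation of the small-subunit rRNA, had 14.1 and 9.84 scaled reads per kb in upf1 cells with CHX against 16.5 and 10.2 with DMSO, and its groups overlapped (log2 change -0.13, limma adjusted p = 0.767). In WT the lowest changes of all members were those of NOP6 (-0.51), UTP14 (-0.49) and NOP7 (-0.11), with ESF2 and NOC2 at 0.09 each. UTP14, the activator of the helicase Dhr1, had 4.33 and 0.945 in WT cells with CHX against 2.01 and 7.15 with DMSO, and these overlapped. None of the 5 was called.

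The snoRNP core genes are among the 5 members of highest level, with 4 of 4 called higher in upf1 and 3 of 4 in WT. NOP1 had 937 and 663 scaled reads per kb in upf1 cells with CHX against 336 and 406 with DMSO, and 926 and 705 in WT cells with CHX against 339 and 333 with DMSO. The changes were 1.09 ± 0.229 (limma adjusted p = 0.00764) in upf1 and 1.26 ± 0.229 (adjusted p = 0.00281) in WT. NOP10 rose by 1.46 ± 0.420 (adjusted p = 0.0200) in upf1 and 1.09 ± 0.420 (adjusted p = 0.0480) in WT. NOP58 had 294 and 317 in upf1 cells with CHX against 165 and 159 with DMSO, and 183 and 166 in WT cells with CHX against 96.2 and 134 with DMSO. NOP56 had 302 and 294 in upf1 cells with CHX against 195 and 125 with DMSO, and 186 and 156 in WT cells with CHX against 98.0 and 128 with DMSO. In both scaffold genes the CHX libraries were above the DMSO libraries of the same genotype, by less than the protein-coding median. NOP58 rose by 0.91 ± 0.212 (adjusted p = 0.0103) in upf1 and 0.61 ± 0.212 (adjusted p = 0.0342) in WT. NOP56 rose by 0.92 ± 0.263 (adjusted p = 0.0192) in upf1 and changed by 0.59 ± 0.263 (adjusted p = 0.0733, not called) in WT.

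Of the 16 large-subunit factors without helicase activity, 4 were called higher in upf1 and 4 in WT. Their medians were 0.78 and 0.81, and 16 and 15 of them lay below the protein-coding median. The calls in WT include NOP8, which passed the minimum only through WT CHX, so its call is not support for a rise. NOP53 passed in the same way, and both genes enter the medians. Among the large-subunit DEAD-box helicases 2 of 5 rose in upf1 (DBP6 and DBP9) and 2 of 5 in WT (DBP3 and DBP6). NUG1, a GTPase of the large-subunit precursor, had 58.0 and 43.2 scaled reads per kb in upf1 cells with CHX against 26.1 and 15.6 with DMSO, and 46.1 and 21.7 in WT cells with CHX against 9.32 and 17.6 with DMSO. Within each genotype the treatments did not overlap, with changes of 1.23 ± 0.446 (limma adjusted p = 0.0428) in upf1 and 1.18 ± 0.446 (adjusted p = 0.0448) in WT. RLP24, which recruits the ATPase Drg1 and is exchanged for a ribosomal protein, rose by 1.06 ± 0.282 (adjusted p = 0.0155) in upf1 and 0.79 ± 0.282 (adjusted p = 0.0362) in WT.

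NOP7, the yeast pescadillo protein and a partner of Erb1 and Ytm1, was called in neither genotype. Its level was 31.8 and 34.7 scaled reads per kb in upf1 cells with CHX against 22.4 and 18.9 with DMSO, without overlap (log2 change 0.64 ± 0.342, limma adjusted p = 0.127). In WT it was 28.2 and 13.7 with CHX against 19.5 and 23.9 with DMSO, and the groups overlapped (-0.11 ± 0.342, adjusted p = 0.765). When the protein-coding median was made equal in all libraries, NOP7 was called lower in WT CHX than in WT DMSO (-1.35, limma adjusted p = 0.0191). NOP15, an RNA-binding large-subunit factor, changed by -0.16 and NOP53 by -0.01 in upf1, and neither was called.

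NOP8, a factor that acts with Dbp6, had 1 and 7 reads in upf1 cells with CHX against 4 and 3 with DMSO, and 11 and 6 reads in WT cells with CHX against 0 and 0 with DMSO. Its groups overlapped in upf1 (log2 change -0.09, limma adjusted p = 0.864). Against an assumed 3 reads over the WT DMSO group, its pooled density in WT CHX, from 17 reads, was 4.04-fold higher. That figure allows for counting error in WT DMSO only and not for the spread between cultures. Because NOP8 passed the minimum through WT CHX, this fold and the limma adjusted p of 0.0108 in WT are given as a description only.

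Of the 4 late small-subunit genes 3 rose in each genotype (TSR1, TSR3 and TSR4). TSR4, which encodes a chaperone of the ribosomal protein Rps2, had 101 and 78.2 scaled reads per kb in upf1 cells with CHX against 44.8 and 29.0 with DMSO, and 64.2 and 39.1 in WT cells with CHX against 13.1 and 10.4 with DMSO. The treatments did not overlap within either genotype. The log2 change was 1.26 ± 0.334 (limma adjusted p = 0.0153) in upf1 and 1.93 ± 0.334 (adjusted p = 0.00236) in WT. That was the largest change in WT on this scale, whereas voom on the recovered reads gave NOP8 3.48, DBP3 2.13 and TSR4 1.98. TSR1, a protein that resembles a GTPase and binds the late small-subunit precursor, rose by 1.12 ± 0.375 (adjusted p = 0.0331) in upf1 and 1.39 ± 0.375 (adjusted p = 0.0129) in WT.

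DBP2 is the 1 member with an annotated intron, 1002 nt long at chrXIV:414912-415913, and the length recovered from its densities, 2817 nt, takes the intron in. It had 523 and 485 scaled reads per kb in upf1 cells with CHX against 334 and 196 with DMSO, and 687 and 457 in WT cells with CHX against 177 and 191 with DMSO. The treatments did not overlap within either genotype, with changes of 0.97 ± 0.293 (limma adjusted p = 0.0235) in upf1 and 1.60 ± 0.293 (adjusted p = 0.00294) in WT. Spliced and unspliced RNA are not separated in these values. DBP1, a relative of the translation factor gene DED1, had 6.59 and 7.47 in upf1 cells with CHX against 2.08 and 1.47 with DMSO, and 2.49 and 1.36 in WT cells with CHX against 1.92 and 0 with DMSO. Its log2 change was 1.26 in upf1 and 0.47 in WT. Because DBP1 passed the minimum through upf1 CHX, the adjusted p of 0.0334 in upf1 is given as a description and not as support for a rise.

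**Figure D4:**
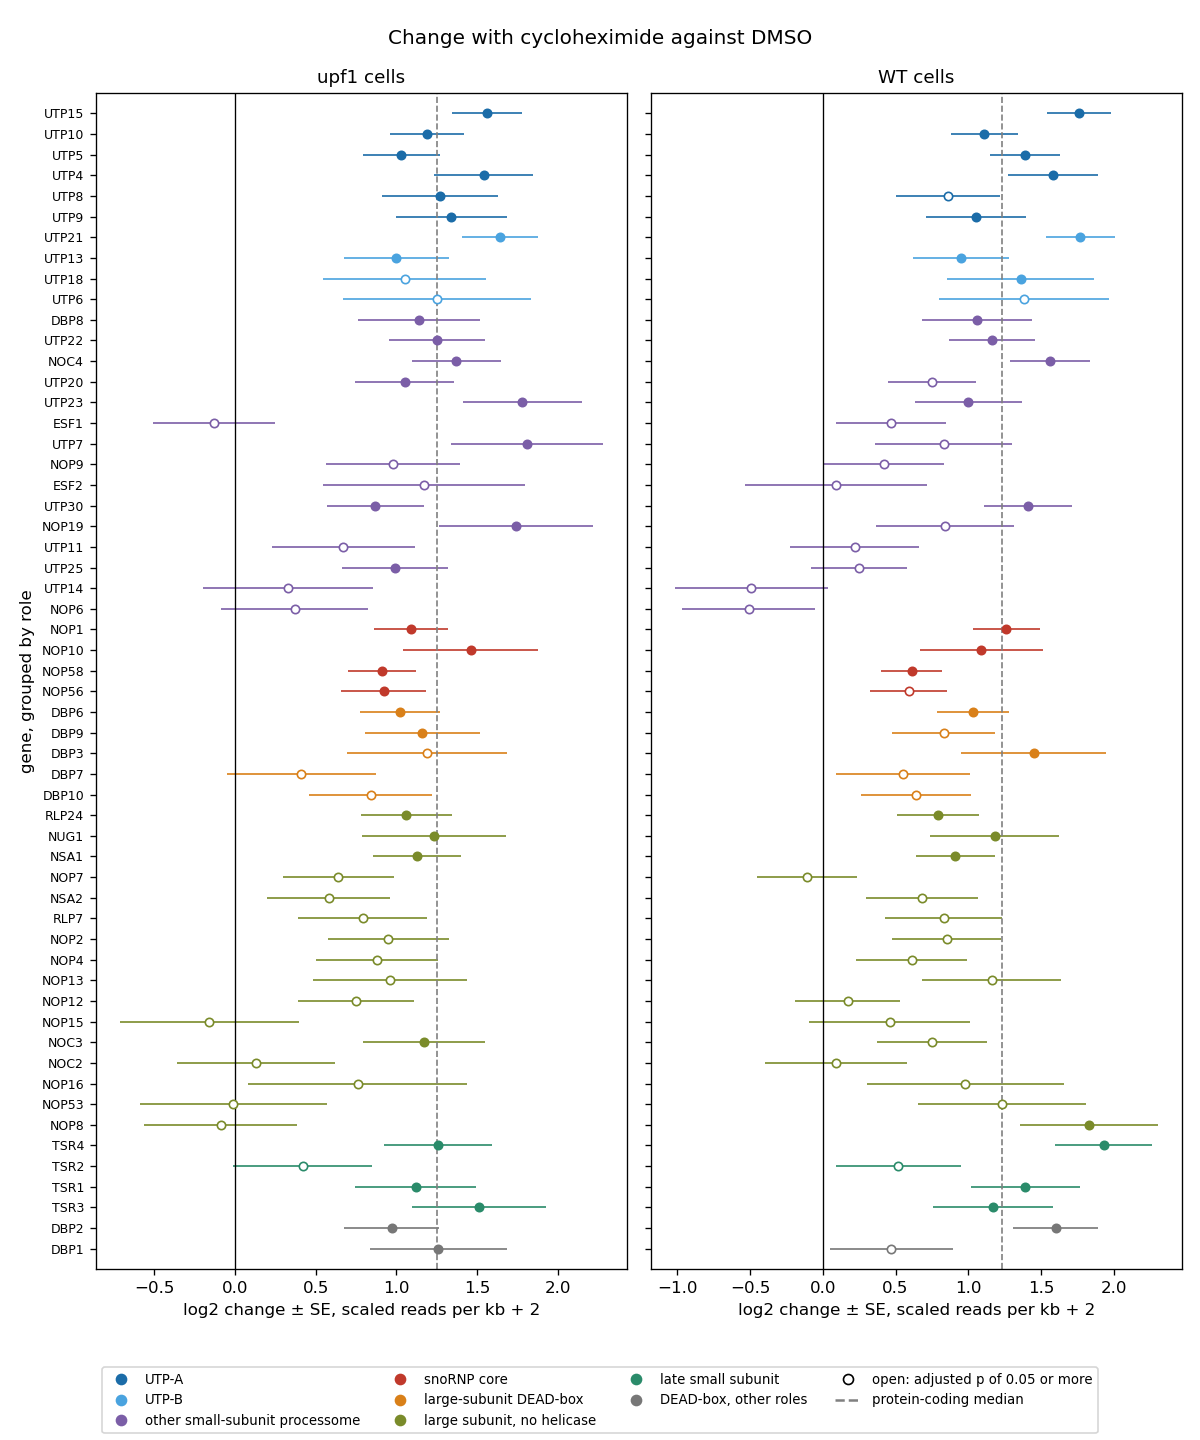
Log2 change ± SE of scaled reads per kb + 2 with CHX against DMSO in upf1 (left) and WT cells (right) for the 56 members tested, grouped and coloured by role; filled points have a limma adjusted p under 0.05 and the dashed line is the median of protein-coding genes (1.25 in upf1, 1.23 in WT). No member was called lower, and 42 of 56 lie left of the dashed line in each genotype.

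In all, 23 genes were called higher in both genotypes, which is 71.9% of the upf1 list and 88.5% of the WT list. For protein-coding genes those shares were 81.7% and 88.3%, and 60.4% of them were called higher in both, against 23 of 56 members (41.1%). DBP1, DBP9, NOC3, NOP19, NOP56, UTP7, UTP8, UTP20 and UTP25 were on the upf1 list and not on that of WT, DBP3, NOP8 and UTP18 were on the WT list and not on that of upf1, and 21 genes were on neither. Calls went with level: of the 28 members with a mean level of 10.6 or more, 23 were called in upf1 and 20 in WT, and of the 28 below it 9 and 6. Of protein-coding genes above the members' median level 83.1% were called in upf1 and 80.3% in WT, and of the others 52.4% and 40.5%. Of the genes with PAC, 27 of 50 were called in upf1 and 22 of 50 in WT, and of those without it 5 of 6 in upf1 and 4 of 6 in WT. Of the genes with RRPE, 25 of 39 were called in upf1 and 21 of 39 in WT, and of those without it 7 of 17 in upf1 and 5 of 17 in WT. The counts by level and by motif include DBP1, with neither motif, in upf1 and NOP8, with both, in WT. Each passed the minimum only through the CHX group of that genotype, so these calls are not support for a rise. Of all features, 64.1% were called higher in upf1 and 69.8% in WT. Shares called among other genes with or without a motif were not counted, and the motif classes were not matched for level. These differences were not tested.

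The calls also moved with single libraries. Calls over all features were not counted in these reduced fits, so whether members lost calls more often than other features was not tested. In upf1, 5 members were called once replicate 1 of upf1 CHX was left out, 12 once its replicate 2 was, and 12 once replicate 2 of upf1 DMSO was. In WT, 12 members were called higher without WT CHX replicate 1 and 14 without WT DMSO replicate 1. There, 12 calls held whichever library was left out: UTP4, UTP5, UTP10, UTP15, UTP21, UTP30, NOC4, NOP1, NOP8, TSR4, DBP2 and DBP6. Among these, NOP8 had passed the minimum only through WT CHX, so its call is a description and not support for a rise. When the protein-coding median was made equal in all libraries, 0 members were called higher in either genotype, and 2 (NOP7 and NOP6) were called lower in WT. Under the authors' scaling most features were higher with CHX, so the calls above are relative to that scaling.

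The other genes of the pathway are a list of 97 further small-subunit, large-subunit and snoRNP factors and RNA polymerase I subunits. With CHX, 54 of 95 tested rose in upf1 and 48 of 95 in WT, against 64.1% and 69.8% of all features. None fell, and the medians were 0.95 and 0.96, against 1.25 and 1.23 for protein-coding genes. The pathway genes thus also rose less often than features as a whole. The largest changes in upf1 were those of TIF6, the yeast eIF6 (2.26 ± 0.373, limma adjusted p = 0.00424), and IMP3, a U3 snoRNP protein (1.78 ± 0.558, adjusted p = 0.0264). In WT they were those of RSA4, a large-subunit factor (2.80 ± 0.269, limma adjusted p = 0.000467), and EMG1, an rRNA methyltransferase (2.66 ± 0.302, adjusted p = 0.000669). The smallest were SAS10 (-0.38) and RRP8 (-0.36) in upf1 and RRP8 (-0.17) and RPA43 (-0.09) in WT, none of them called. By list, 23 of 41 small-subunit factors, 23 of 43 large-subunit factors, 3 of 4 snoRNP proteins and 5 of 7 RNA polymerase I subunits rose in upf1.

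Loss of UPF1 without CHX was compared next. In DMSO, 4 of 56 members were higher in upf1 than in WT (TSR4, NOC4, UTP30 and UTP5), none was lower and 52 were not called, against 14.7% of all features and 13.2% of protein-coding genes called higher and 0.395% of features lower. The median change of the members was 0.28, against 0.51 for protein-coding genes. It was 0.14 without WT DMSO replicate 1 and 0.52 without WT DMSO replicate 2. The call of each of the 4 ended when single libraries were left out, between 5 and 8 of the 8, and 0 to 2 members were then called.

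TSR4 had 44.8 and 29.0 scaled reads per kb in upf1 DMSO against 13.1 and 10.4 in WT DMSO, and its log2 change was 1.48 ± 0.334 (limma adjusted p = 0.0289). NOC4 had 21.2 and 14.1 in upf1 DMSO against 6.40 and 7.59 in WT DMSO (1.11 ± 0.276, adjusted p = 0.0373). UTP30, which resembles a ribosomal protein and binds the processome, had 5.09 and 6.0 in upf1 DMSO against 0.981 and 1.75 in WT DMSO (1.17 ± 0.30, adjusted p = 0.0405). That call rests on 6 and 6 reads in upf1 DMSO against 1 and 1 in WT DMSO, whose levels lie under the added 2. In all 3 genes both upf1 libraries were above both WT libraries. UTP5 had 36.4 and 40.3 in upf1 DMSO against 21 and 19.1 in WT DMSO, again without overlap (0.87 ± 0.239, adjusted p = 0.0489).

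Next in order were UTP15, with 44.3 and 47.6 scaled reads per kb in upf1 DMSO against 24.5 and 27.4 in WT DMSO (0.78 ± 0.218, limma adjusted p = 0.0515), and UTP21, with 18.7 and 15.5 in upf1 DMSO against 9.52 and 9.04 in WT DMSO (0.75 ± 0.235, adjusted p = 0.0708). Their libraries did not overlap but neither passed the threshold. ESF1 had 16.5 and 10.2 in upf1 DMSO against 4.31 and 5.96 in WT DMSO (1.09 ± 0.376, adjusted p = 0.0934). The most negative changes were those of NOP6 (-0.55), NOP16 (-0.53), UTP14 (-0.42) and RLP7 (-0.38), with adjusted p between 0.437 and 0.618.

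The genes taken as anchors of each role were not called unless named above. NOP1 had 336 and 406 scaled reads per kb in upf1 DMSO against 339 and 333 in WT DMSO (0.14 ± 0.229, limma adjusted p = 0.709), and NOP7 had 22.4 and 18.9 in upf1 DMSO against 19.5 and 23.9 in WT DMSO (-0.06 ± 0.342, adjusted p = 0.941). In both the groups overlapped. DBP2 had 334 and 196 in upf1 DMSO against 177 and 191 in WT DMSO, a change of 0.47 ± 0.293 (adjusted p = 0.312). NOP58 (0.50), NOP56 (0.47), UTP10 (0.54), UTP13 (0.72), UTP22 (0.53), NUG1 (0.58), TSR1 (0.55), DBP1 (0.43), RLP24 (0.27) and NOP10 (0.17) had positive log2 changes that were not called. By role the median change was 0.66 for UTP-A genes, 0.74 for UTP-B genes, 0.56 for the late small-subunit genes, 0.32 for the snoRNP core, 0.23 for the large-subunit helicases, 0.16 for the other large-subunit factors and 0.13 for the other small-subunit processome genes.

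Among the other pathway genes 6 of 95 were called higher in upf1 DMSO (ALB1, RSA4, NOG1, SDA1, PWP2 and RCL1) and none lower. Of all features, 14.7% were called higher. ALB1, a shuttling large-subunit factor, changed by 1.53 ± 0.229 (limma adjusted p = 0.00838) and RSA4 by 1.34 ± 0.269 (adjusted p = 0.0199). At the low end, RPF1 changed by -0.56, which was not called. CGR1, a large-subunit factor, had 0 reads in each of the 4 upf1 libraries, against 4 and 3 reads in WT cells with CHX and 2 and 1 with DMSO. Its fitted changes of -1.38 with DMSO (adjusted p = 0.0642) and -1.95 with CHX (adjusted p = 0.119) depend on the pseudocount, and whether the CGR1 locus is intact in the upf1 strain was not tested.

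**Figure D5:**
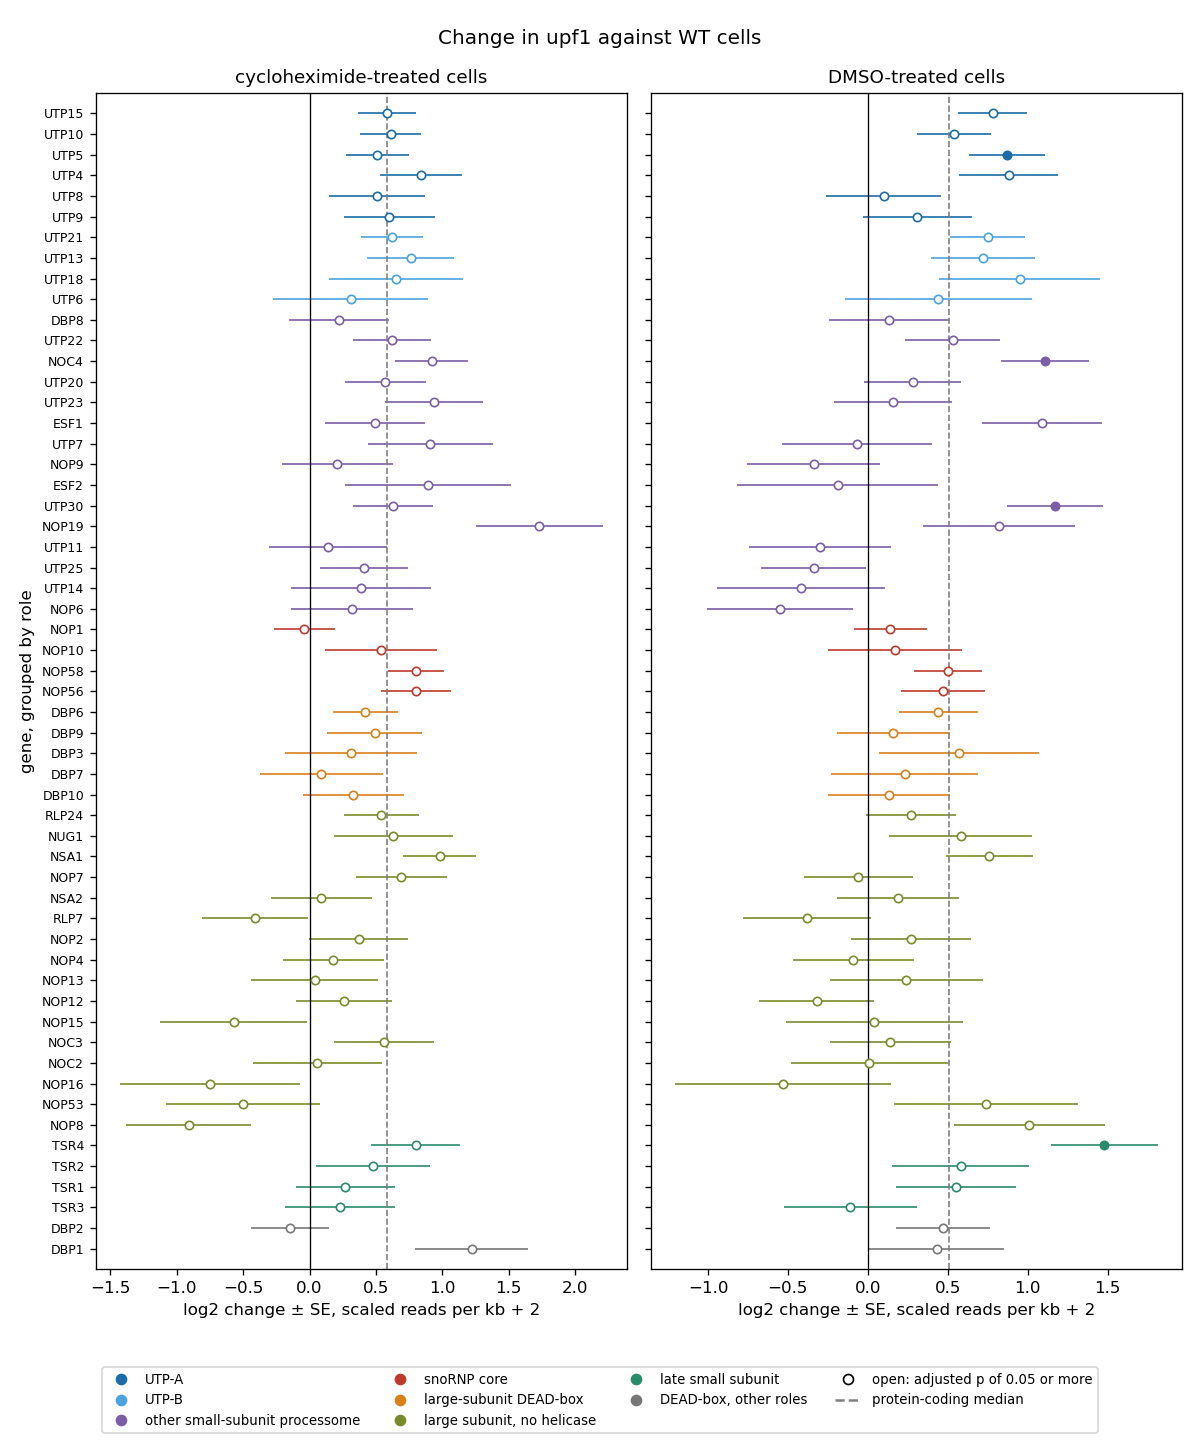
Log2 change ± SE of scaled reads per kb + 2 in upf1 against WT with CHX (left) and with DMSO (right) for the 56 members tested, grouped and coloured by role; filled points have a limma adjusted p under 0.05 and the dashed line is the median of protein-coding genes (0.58 with CHX, 0.51 with DMSO). The 4 filled points with DMSO are TSR4, NOC4, UTP30 and UTP5, and no point is filled with CHX.

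Under CHX none of the 56 members passed the test between upf1 and WT by limma, against 0.0481% of all features called higher and 0.0385% lower. An unadjusted p under 0.05 was found for 12 of 56 members, against 23.6% of all features. Voom on the recovered reads called 6 members higher, against 11.5% of all features. The median change was 0.49, against 0.58 for protein-coding genes, and 49 of 56 changes were positive (87.5%, against 88.5% of protein-coding genes). The median was 0.74 without WT CHX replicate 1 and 0.13 without WT CHX replicate 2. The smallest p was that of NOP58, with 294 and 317 scaled reads per kb in upf1 CHX against 183 and 166 in WT CHX, without overlap (0.80 ± 0.212, limma adjusted p = 0.131). NOP19 had the largest change, with 14.3 and 18.9 in upf1 CHX against 5.24 and 2.29 in WT CHX (1.73 ± 0.477, adjusted p = 0.131). NSA1, a component of an early large-subunit particle, had 47.1 and 42.7 in upf1 CHX against 22.0 and 21.5 in WT CHX (0.98 ± 0.273, adjusted p = 0.132). In these 3 genes both upf1 libraries were above both WT libraries.

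Others were DBP1 (1.22), NOC4 (0.92), UTP23 (0.94) and NOP56 (0.80), each with libraries that did not overlap and a limma adjusted p between 0.139 and 0.188. DBP1 passed the minimum only through upf1 CHX, so its values here are a description and not support for a difference. The most negative changes were those of NOP8 (-0.91), NOP16 (-0.75), NOP15 (-0.57) and NOP53 (-0.50), none called. NOP8 and NOP53 passed the minimum only through WT CHX, so their changes are a description as well. NOP1 (-0.04) and DBP2 (-0.15) lay near 0, with 523 and 485 scaled reads per kb of DBP2 in upf1 CHX against 687 and 457 in WT CHX. Of the other pathway genes, 0 of 95 were called by limma and 25 had an unadjusted p under 0.05, against 23.6% of all features. LSG1 (1.22) and RRP3 (1.19) had the largest changes, and CGR1 and RRP14 (-0.79) the smallest.

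Whether the response to CHX differed between the genotypes was tested as the interaction. No member was called by limma (0 of 56, against 0.0% of features in either direction), 1 member had an unadjusted p under 0.05 (against 9.08% of all features), and voom called none of them either. The median interaction was 0.08, against -0.01 for protein-coding genes. That 1 member was NOP8, whose interaction was -1.93 ± 0.667 (adjusted p = 0.450). The largest positive values were those of ESF2 (1.08), UTP7 (0.99), NOP19 (0.90) and NOP6 (0.88), and the most negative after NOP8 were NOP53 (-1.24), TSR4 (-0.67) and DBP2 (-0.62), with adjusted p of 0.687 or more. The SE of the interaction was 0.309 for UTP15, 0.333 for UTP21 and 0.667 for NOP8. The NOP8 value of -1.93, with its SE of 0.667, was still not called, and NOP8 had passed the minimum only through WT CHX. Differences well above their SE could thus go undetected at this depth, and the lack of calls does not show an equal response.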

How the data were processed

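Terminator-digested total RNA of 8 libraries was sequenced with strand-specific kits, per the labels' protocols. The authors deposited 1 table of normalized read densities (signal values) per feature; the submitters' processing notes name Trim Galore, HISAT2 2.2.0, featureCounts 2.0.0, DESeq2 and the R64 genome, without roles. The library factors, feature lengths and strand setting are not given in the sources used here. Every library is listed with 1.5 µg of RNA and 3 µl of a spike-in. Whether the library factors rest on the spike-in is not given either. Because the densities proved to be whole reads divided by a length and times 1 factor per library (100.0% of positive values whole within 0.001 reads), read numbers were recovered from them. The recovered length exceeded the RefSeq gene span for 56 members (median excess 170 nt) and equalled it for 1, and without a stated strand setting, reads of overlapping genes cannot be told apart.

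Densities were multiplied by 1000, and log2(value + 2) was tested with limma 3.58.1 in R 4.3.3 (all 8 libraries in 1 fit with 4 groups, variance trend, two-sided). Features with a mean under 2 and 8 ribosomal RNA rows were left out. The fit had 4 residual and 3.6 prior degrees of freedom, and p-values were adjusted over 10392 features, of which 5517 are protein-coding. A simulation with known changes was used to check the code. Promoter windows were read from RefSeq R64 with Python 3.11.15. With 2 libraries a group, errors cover the spread between those cultures and intervals cover counting error only.

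Named are NAM7, 13 anchor genes, and per comparison the 6 members of smallest p and the 4 of largest and of smallest change, plus DBP2 (intron), NOP14 (untested) and the 2 pathway genes of largest and of smallest change. A few further members are named to list calls, chosen after their values were seen. Members, roles and lists were chosen with earlier results of these data known. Alternatives were other pseudocounts, filters and scalings, a replicate block, fits of 2 groups, voom on recovered reads and leaving out each library.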

Additional observations from a re-analysis of the deposited data

Results flagged for a closer look

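NOP8 moved in opposite directions under the same contrast: both upf1 libraries lay above both WT libraries with DMSO, at 2.16 and 1.91 scaled reads per kb in upf1 against 0 and 0 in WT. With CHX both lay below, at 1.23 and 2.43 in upf1 against 8.90 and 2.65 in WT. The interaction was -1.93 (limma adjusted p = 0.450), which did not pass the threshold, and rests on 0 to 11 reads per library. NOP8 passed the minimum mean only through WT CHX (5.77 scaled reads per kb, against 1.29 over the other groups), so these values are a description and support no difference. With 2 libraries a group no single library can be tested for standing apart.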

How the results depend on the processing

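The direction of the CHX change rests on the authors' scaling. The median and quantile scalings below remove any change that most genes share, so they cannot show a shared rise. Making the protein-coding median equal in all libraries shifted them by -0.949 to 0.965 on the log2 scale. With that scaling, 0 members were higher with CHX in upf1 (median -0.22), 0 were higher and 2 lower in WT (median -0.35), and 0 were higher in upf1 DMSO than in WT DMSO (median -0.28), with a median of -0.08 for upf1 against WT in CHX. Quantile normalization gave 0 higher in upf1 (median -0.25), 0 higher and 5 lower in WT (median -0.64), and 0 higher in upf1 DMSO (median -0.34). Under the median and the quantile scaling, the CHX change in upf1 turned to -0.16 and -0.02 for NOP1, -0.33 and -0.31 for NOP56, -0.35 and -0.32 for NOP58, -0.07 and -0.14 for UTP10, -0.26 and -0.31 for UTP13, -0.01 and -0.05 for UTP22, -0.03 and -0.08 for NUG1, -0.20 and -0.25 for RLP24, -0.28 and -0.16 for DBP2, and -0.13 and -0.13 for TSR1. In WT it turned to -0.63 and -0.72 for NOP58, -0.15 and -0.24 for NOP10, -0.12 and -0.34 for UTP10, -0.29 and -0.56 for UTP13, -0.08 and -0.32 for UTP22, -0.06 and -0.31 for NUG1, and -0.44 and -0.66 for RLP24, and with quantile normalization alone to -0.16 for TSR1 and -0.06 for UTP5.

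Fits of the 2 groups compared called 16 members in WT and 0 in upf1 DMSO. A pseudocount of 10 gave a median of 0.67 in upf1 and 0 members higher in upf1 DMSO. A minimum mean of 10 gave a median of 0.03 relative to protein-coding genes for upf1 against WT in CHX. Voom called 6 members there, and 1267 of all features against 9 by limma. Leaving out 1 library at a time gave 5 to 36 members higher with CHX in upf1, 12 to 28 in WT and 0 to 2 in upf1 DMSO. The relative median in upf1 DMSO then ran between -0.30 and 0.02, the median interaction between -0.09 and 0.38, and the relative median interaction between -0.08 and 0.31. The cause of these changes was not tested. Leaving out DBP1, NOP8 and NOP53, an alternative chosen after seeing the data, changed no count of calls by more than 1. A replicate block called 32 members in upf1, 25 in WT, 4 in upf1 DMSO, and 0 in upf1 against WT in CHX and in the interaction. The sample titles link same-numbered libraries only by that number. Correlations of their deviations lay between -0.0438 and 0.117, which cannot exclude a shared batch. With a median of 8 to 60 reads per member and library, small changes of low genes were not detectable.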
